A study of Mus musculus with 19 samples.

Results

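The 10 genes described here handle cholesterol after it has reached the liver cell. They are the oxysterol receptors Nr1h2 and Nr1h3, the sterol exporters Abca1, Abcg1, Abcg5 and Abcg8, the sterol acyltransferases Soat1 and Soat2, and the lysosomal export proteins Npc1 and Npc2. They were chosen by gene symbol from the liver RNA-seq table of a study of RALY, an hnRNP (a nuclear RNA-binding protein), which holds 24054 genes. All 10 were found there, and all 10 had a mean value of at least 1 and were tested. RNA was compared between 3 L-RalyKO mice and 3 control mice. Every mouse was Raly flox/flox on a C57BL/6 background and on chow diet, so the controls, labelled wild type, also carried the floxed allele. L-RalyKO mice had received AAV8.TBG.Cre and controls AAV8.TBG.GFP, and livers were taken 4 weeks after the virus. By the methods, mice were male where nothing else was said, and the sources used here do not give the age of these animals. The TBG promoter drives Cre in hepatocytes, so the other cells of the liver keep Raly. The question of the comparison was which liver transcripts depend on RALY.

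As background, LXR alpha (Nr1h3) and LXR beta (Nr1h2) are nuclear receptors that bind oxysterols, pair with a retinoid X receptor on DNA and raise the transcription of genes that remove cholesterol. ABCA1 and ABCG1 load cholesterol onto lipoprotein particles, and ABCG5 and ABCG8 form a heterodimer that secretes sterols into bile. SOAT2 esterifies cholesterol in hepatocytes and SOAT1 does so in many other cells, macrophages among them. NPC2 and NPC1 pass cholesterol out of the lysosome in sequence.

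A value in this report is the deposited normalised value, reads scaled to the effective library size of each mouse and not divided by gene length. Recovered reads per mouse lay between 28302983 and 38052705. Raly had values of 6.34, 6.61 and 7.39 in L-RalyKO mice 1, 2 and 3 and of 50.1, 48.6 and 46.8 in the controls, which follows the labels. Hepatocyte markers were abundant in every library (Alb at 63858 or more). Lymphocyte markers summed to 6.85 to 10.8 over all mice, mostly Ptprc (4.70 to 7.79), with Cd3e at 0.358 or less. In bulk liver, fewer cells of a type and less RNA per cell cannot be told apart.

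Promoters of members are shown where the values below bear on them, namely for Abca1, which fell, and for Abcg5 and Abcg8, which start back to back at the upstream start site of Abcg8. RefSeq windows (table of build GRCm38.p6, 250 bases before to 50 after a start site) were used for 7 of the 10 members. Abcg1 and Soat2 had none in that table. Npc1 was left out of the search, so whether the table holds a window for it was not tested. The positions given come from an exact match of each window to NCBIM37, the build of the study. The Abca1 window lies at chr4:53172718-53173017 on the - strand and is written in the direction of the gene. Its capitals mark an E-box (CACGTG, 147 bases before the start site) and, 67 bases before the start site on the opposite strand, a match to the LXR response element of the DR4 type without its first base (GGTNA, any 4 bases, NGGTCA).
Abca1: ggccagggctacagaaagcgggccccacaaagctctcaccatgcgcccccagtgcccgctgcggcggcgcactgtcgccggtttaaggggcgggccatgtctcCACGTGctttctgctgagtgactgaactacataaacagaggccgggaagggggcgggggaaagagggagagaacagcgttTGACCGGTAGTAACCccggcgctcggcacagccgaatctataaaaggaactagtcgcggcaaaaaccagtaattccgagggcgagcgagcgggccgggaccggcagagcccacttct
The Abcg8 window lies at chr17:85082211-85082510 on the + strand. Its capitals mark the 109 bases between the start sites of Abcg5 (85082351, - strand) and Abcg8 (85082461, + strand), so that 1 short stretch holds both starts. A second Abcg8 window in the table has its start site at 85075642, inside Abcg5, and is not shown.
Abcg8: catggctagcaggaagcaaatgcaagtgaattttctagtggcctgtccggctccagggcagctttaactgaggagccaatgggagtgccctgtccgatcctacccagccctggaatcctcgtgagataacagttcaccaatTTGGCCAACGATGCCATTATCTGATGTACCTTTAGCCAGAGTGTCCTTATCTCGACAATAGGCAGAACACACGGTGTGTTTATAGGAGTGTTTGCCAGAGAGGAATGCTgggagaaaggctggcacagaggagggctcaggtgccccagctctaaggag
Letters were searched on both strands of 32851 distinct windows of 300 bases. The shortened DR4 element, chosen with the Abca1 window in view, occurred in 0.207% of them, the full element (AGGTNA, any 4 bases, NGGTCA), which contains it, in 0.0883%, CACGTG in 7.15%, CCAAT (the letters bound by NFY) in 37.4% and TCACNCCAC (a sterol regulatory element) in 1.24%. The full DR4 element and TCACNCCAC were not in the window of Abca1, Abcg5 or Abcg8. CCAAT occurred 2 times in the Abcg8 window shown and not in the second one, and of these the copy 114 bases before the Abcg8 start ends on the Abcg5 start site. The Abca1 window held no CCAAT. For the other members with a window, CCAAT occurred 2 times for Npc2 and 1 time for Soat1, and not for Nr1h2 or Nr1h3. These matches are descriptions of the letters and were not tested against the values.

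Of the 10 members, 2 had an adjusted p under 0.05 in limma with Benjamini-Hochberg adjustment over all genes, where 6.55% of the 11580 genes tested did. Both, Abca1 and Soat2, were lower in L-RalyKO liver (3.19% of all genes were called lower and 3.36% higher). With a count of 2, this share cannot be read as particular to these genes. The median log2 fold change of the 10 was 0.02, against 0.00 over all genes tested. The groups did not overlap for 4 members, namely Abca1 and Soat2 (lower) and Abcg5 and Npc2 (higher). Over all genes 28.1% did not overlap, 14.4% higher and 13.7% lower. No member differed by 1.5-fold or more, and the plot of values by mouse shows how close the groups were.

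**Figure D1:**
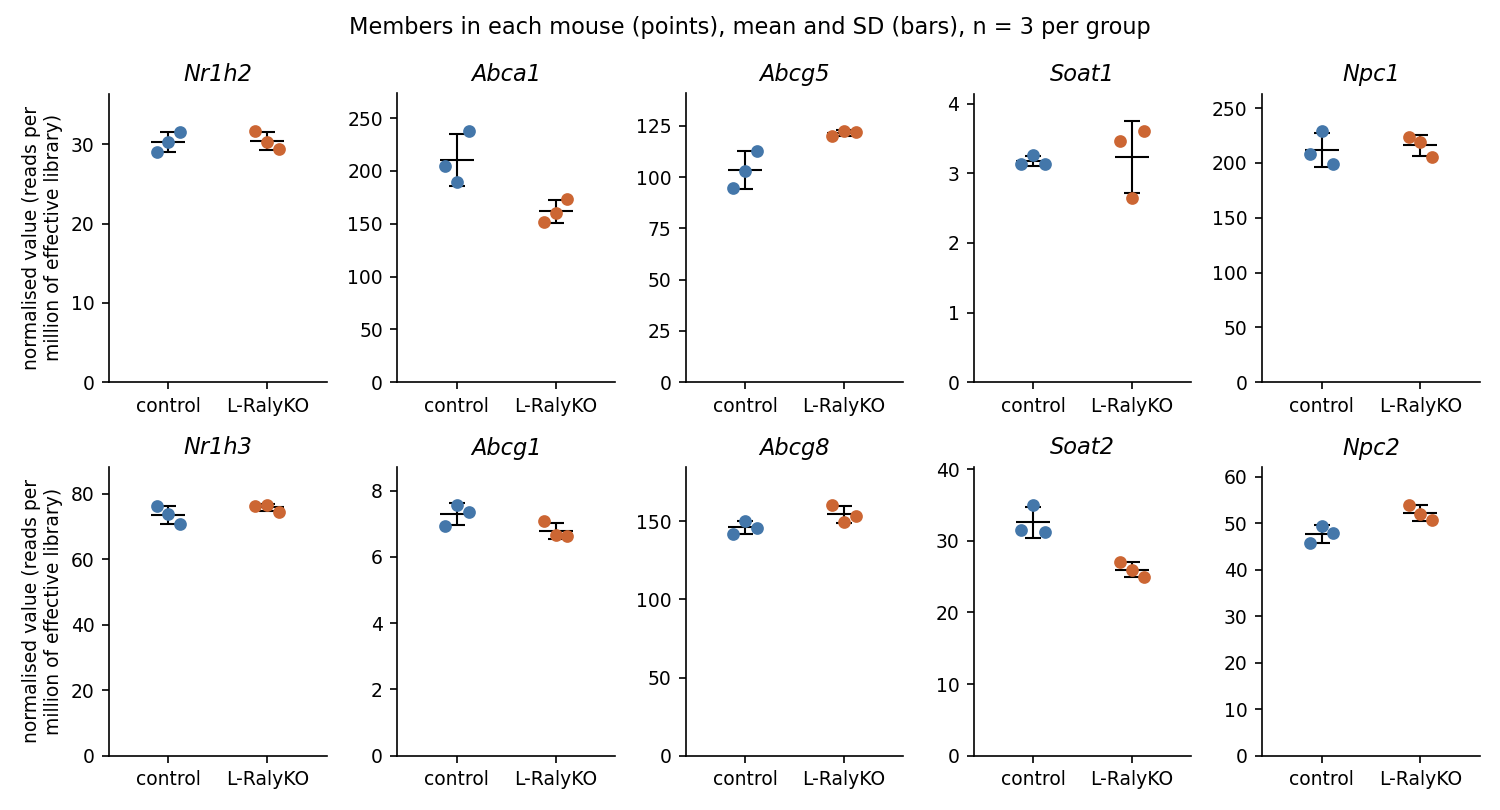
Normalised value (reads scaled to the effective library size, axes from 0) of each member in each of 3 control and 3 L-RalyKO mice, with the mean and SD as bars. The L-RalyKO points lie below every control point for Abca1 and Soat2, above every control point for Abcg5 and Npc2, and the groups overlap for the other 6 genes.

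Both receptors stood at nearly the same level with and without Raly. Nr1h3, the LXR of hepatocytes and macrophages (ENSMUSG00000002108.4, chromosome 2 from 91024218 to 91042991 in NCBIM37), had values of 76.4, 76.7 and 74.6 in L-RalyKO mice and of 76.4, 73.7 and 70.7 in controls. The groups overlapped. The log2 difference came to 0.04 (SE of 0.0481, 95% interval −0.07 to 0.15, adjusted p = 0.642, limma). Nr1h2, the LXR found in most tissues (ENSMUSG00000060601.6, chromosome 7 from 51804986 to 51809321), had values of 31.6, 30.3 and 29.4 in L-RalyKO mice and of 29.1, 30.3 and 31.5 in controls. These ranges almost coincide, and the interval of the log2 fold change ran from −0.12 to 0.14 (adjusted p = 0.961, limma). The ratio of Nr1h3 to Nr1h2 within a library, which no scaling of libraries can move, was 2.49 ± 0.0701 with Cre and 2.43 ± 0.193 with GFP (mean ± SD, n = 3 each, exact two-sided permutation test of the log2 ratio, p = 0.7).

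Abca1 was the exporter that fell. ABCA1 passes cholesterol and phospholipid to apolipoprotein A-I and is a classic target of LXR. Abca1 (ENSMUSG00000015243.4, chromosome 4 from 53043659 to 53172767, - strand) had values of 152, 160 and 174 in L-RalyKO mice and of 204, 190 and 238 in controls. All 3 L-RalyKO mice lay below all 3 controls, with a gap of 16.01 between the groups. The mean was 162 ± 11.03 against 211 ± 24.6 (SD, n = 3 each), a mean that fell by 23.1%, and limma gave a log2 fold change of −0.37 (SE 0.0858, 95% interval −0.57 to −0.18, adjusted p = 0.0396, limma). An exact permutation test cannot go below p = 0.1 with 3 mice per group, and gave 0.1. Between 5215 and 8792 reads stood behind each value, so that counting error at the lowest was 1.38% while the controls differed among themselves by 11.7% (coefficient of variation).
The call on Abca1 was narrow. Its adjusted p (limma) was 0.130, 0.106 and 0.0522 without L-RalyKO replicate 1, 2 or 3, 0.0939 and 0.0508 without control replicate 1 or 3, and 0.0298 without control replicate 2, with log2 fold changes from −0.45 to −0.28. It was 0.0745 with all genes that had at least 1 read in any mouse, 0.0778 without an intensity trend, and ranged from 0.000724 to 0.130 over all alternatives.

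Abcg1, the other exporter to lipoproteins, was low in liver and did not pass the test. ABCG1 moves cholesterol to particles that already carry lipid, and macrophages are rich in it. Abcg1 (ENSMUSG00000024030.6, chromosome 17 from 31194643 to 31252722) had values of 7.07, 6.64 and 6.63 in L-RalyKO mice and of 6.91, 7.57 and 7.35 in controls, from 216 to 272 reads. The highest L-RalyKO mouse lay inside the control range. The log2 fold change was −0.09 (95% interval −0.26 to 0.08, adjusted p = 0.522, limma). The ratio of Abca1 to Abcg1 was 23.9 ± 2.37 in L-RalyKO and 29.0 ± 3.68 in control liver, with overlapping groups (SD, n = 3 each, exact two-sided permutation test, p = 0.2), so that a difference in response between both exporters was not shown.

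Abcg5 had higher values in L-RalyKO liver without passing the adjusted threshold, and its partner Abcg8 differed less. The pair sits in the canalicular membrane and secretes cholesterol and plant sterols, and each subunit needs the other to leave the endoplasmic reticulum. Abcg5 (ENSMUSG00000040505.6, chromosome 17 from 85057574 to 85082351, - strand) had values of 120, 122 and 122 in L-RalyKO mice and of 94.8, 103 and 113 in controls. The L-RalyKO mice lay close together and above every control. The log2 difference came to 0.23 (SE of 0.0645, 95% interval 0.08 to 0.38, adjusted p = 0.0704, limma; exact permutation test, p = 0.1). Abcg8 (ENSMUSG00000024254.8, chromosome 17 from 85075642 to 85099673, + strand) had values of 161, 150 and 153 in L-RalyKO mice and of 142, 150 and 146 in controls. Here 1 L-RalyKO mouse fell just inside the control range, and the log2 fold change was 0.08 (95% interval −0.03 to 0.19, adjusted p = 0.369, limma).
The ratio of Abcg5 to Abcg8 was 0.746, 0.817 and 0.797 in L-RalyKO mice and 0.667, 0.684 and 0.774 in controls. The groups overlapped, and the difference of 0.15 on the log2 scale was within what the mice allow (exact two-sided permutation test, n = 3 each, p = 0.2). The genes share 82 exonic bases on opposite strands (2.99% of the exons of Abcg5 and 2.19% of those of Abcg8), and whether reads were counted by strand is not given in the sources used here. Abcg5 was past 0.05 with DESeq2 on the recovered reads (adjusted p = 0.0380) and without control replicate 3 (log2 fold change 0.30, adjusted p = 0.0198, limma), and its adjusted p reached 0.176 without control replicate 1.

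Soat2, the acyltransferase of hepatocytes, fell. SOAT2 joins cholesterol to a fatty acid for storage in lipid droplets or for packing into lipoproteins. Soat2 (ENSMUSG00000023045.6, chromosome 15 from 101980957 to 101993905, + strand) had values of 27.0, 25.9 and 24.9 in L-RalyKO mice and of 31.5, 35.0 and 31.2 in controls. The L-RalyKO mice were all lower than the controls, 4.15 units apart at the nearest. The mean was 25.9 ± 1.07 against 32.6 ± 2.14 (SD, n = 3 each), a mean that fell by 20.3%. The log2 difference came to −0.32 (SE of 0.064, 95% interval −0.46 to −0.17, adjusted p = 0.0246, limma; exact permutation test, p = 0.1), the smallest p among the members and position 433 of 11580 over all genes.
The Soat2 call held in each of the 9 other tests, scalings and filters (adjusted p from 0.0039 to 0.0488). With fewer mice it was lost in 5 of 6 fits (limma), at 0.0574, 0.0717 and 0.0743 without L-RalyKO replicate 1, 2 or 3 and at 0.0586 and 0.0617 without control replicate 1 or 2, and was 0.0281 without control replicate 3. The log2 fold change stayed between −0.35 and −0.26.

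Soat1 was the lowest member and did not pass the test, with a wide interval. Soat1 (ENSMUSG00000026600.6, chromosome 1 from 158358239 to 158404459) had values of 3.46, 2.64 and 3.60 in L-RalyKO mice and of 3.13, 3.26 and 3.14 in controls. L-RalyKO mouse 2 was below and the others of its group above all controls. Only 91 to 137 reads stood behind each value, and the exact 95% Poisson interval of L-RalyKO mouse 2 (2.13 to 3.24, counting error only) covers part of the control range. The log2 fold change was 0.01 (95% interval −0.24 to 0.26, adjusted p = 0.960, limma). The ratio of Soat2 to Soat1 was 7.81, 9.81 and 6.91 in L-RalyKO mice and 10.1, 10.7 and 9.94 in controls, lower in every L-RalyKO mouse (log2 difference −0.34, exact two-sided permutation test, n = 3 each, p = 0.1, the smallest p possible).

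**Figure D2:**
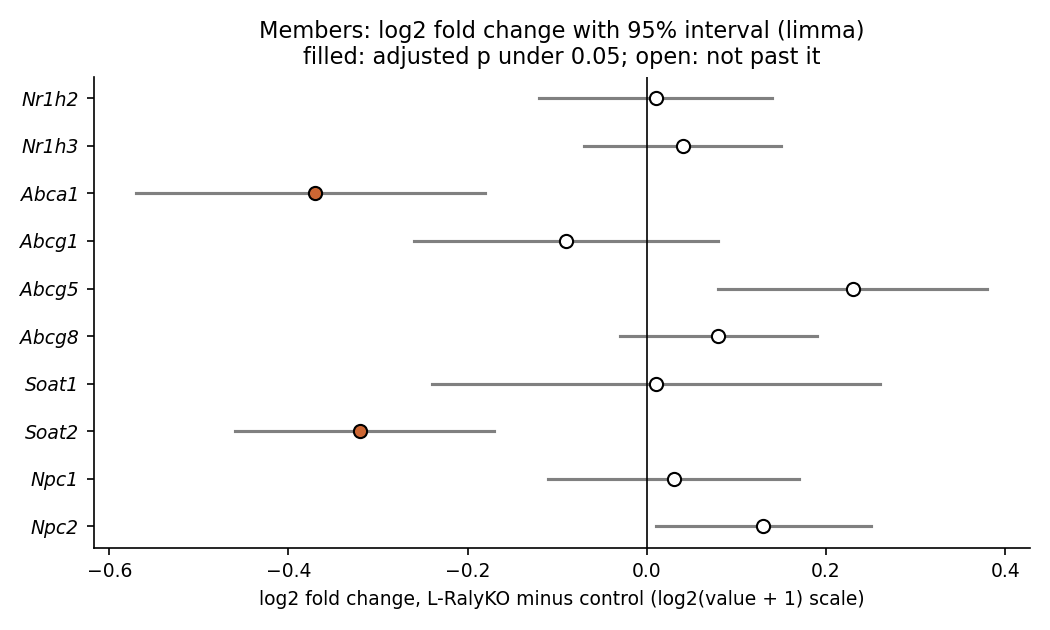
Log2 fold change (L-RalyKO minus control, on the log2(value + 1) scale) of each member with its 95% interval from limma, filled where the adjusted p was under 0.05. The intervals of Abca1 (−0.57 to −0.18) and Soat2 (−0.46 to −0.17) lie below 0, those of Abcg5 and Npc2 above 0 without passing the adjusted threshold, and the other 6 include 0.

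Of the lysosomal pair, Npc2 had slightly higher values in every L-RalyKO mouse than in any control, while the groups overlapped for Npc1. Neither gene passed the adjusted threshold. NPC2 is the soluble protein that takes up cholesterol in the lysosome and hands it to the membrane protein NPC1. Npc2 (ENSMUSG00000021242.8, chromosome 12 from 86095510 to 86114062) had values of 54.0, 52.0 and 50.8 in L-RalyKO mice and of 45.8, 49.5 and 47.9 in controls. The groups lay apart by 1.25 units, and the log2 fold change of 0.13 (95% interval 0.01 to 0.25) did not pass adjustment (adjusted p = 0.189, limma; exact permutation test, p = 0.1). Npc1 (ENSMUSG00000024413.6, chromosome 18 from 12348202 to 12394909) had values of 224, 219 and 205 in L-RalyKO mice and of 208, 229 and 199 in controls. These fully overlapped, at a log2 difference of 0.03 (95% interval −0.11 to 0.17, adjusted p = 0.838, limma). The ratio of Npc2 to Npc1 was 0.242 ± 0.00521 with Cre and 0.226 ± 0.0135 with GFP (mean ± SD, n = 3 each, exact two-sided permutation test, p = 0.2). The groups overlapped for this ratio, so that a difference in response between both genes was not shown. Of the exons of Npc1, 192 bases overlap those of 3110002H16Rik on the opposite strand.

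Divided by the length of the longest protein-coding transcript (GENCODE vM1), the members fell into 3 tiers in control liver. Abcg5 (44.0 ± 3.88 per kilobase, SD, n = 3), Npc1 (40.6 ± 2.96), Abcg8 (39.8 ± 1.11) and Nr1h3 (37.6 ± 1.45) were highest. Neighbours in this order overlapped between mice. Abca1 (20.5 ± 2.40), Nr1h2 (15.2 ± 0.615), Soat2 (14.7 ± 0.966) and Npc2 (14.6 ± 0.574) came next. Among them Abca1 stood apart from Nr1h2, and the last 3 overlapped. Abcg1 (2.02 ± 0.0929) and Soat1 (0.664 ± 0.0155) were far below and did not overlap.
In L-RalyKO liver Abca1 (15.8 ± 1.07 per kilobase) overlapped Nr1h2 (15.2 ± 0.573), from which it had stood apart in controls. Soat2 (11.7 ± 0.481) lay below Npc2 (16.03 ± 0.509) with no overlap, and Abcg5 (51.6 ± 0.574) stood apart above Npc1 (41.3 ± 1.85). The order depends on the length used. With the union of all annotated exons, a choice made after seeing the data, Npc1 moved from position 2 to position 5, at 19.8 per kilobase in controls, and Nr1h2 from 6 to 8, at 9.003 per kilobase, below the second tier. Abcg8 (39.0 per kilobase) then stood above Abcg5 (37.7), while Abcg1 and Soat1 stayed last.

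**Figure D3:**
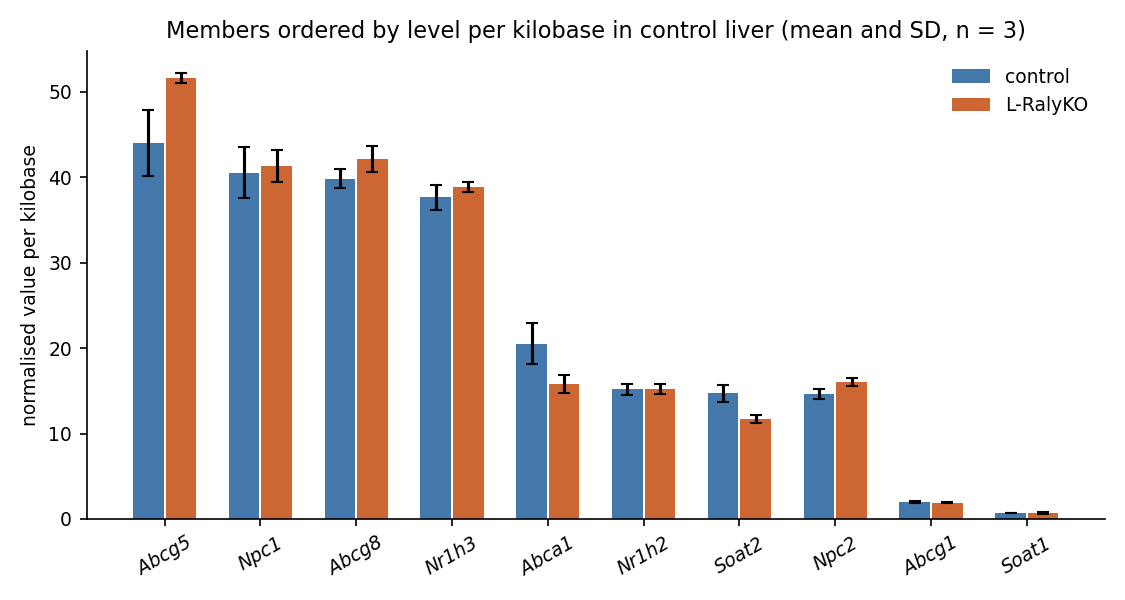
Normalised value per kilobase of the longest protein-coding transcript, mean and SD over 3 mice, for the members ordered by their level in control liver. In controls Abcg5, Npc1, Abcg8 and Nr1h3 stand between 37.6 and 44.0 per kilobase, and Abca1, Nr1h2, Soat2 and Npc2 between 14.6 and 20.5. Abcg1 and Soat1 stand at 2.02 and 0.664 in controls, while Abcg5 reaches 51.6 in L-RalyKO liver.

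Some members are also expressed by cells that keep Raly, so markers of those cells are given beside the results. Of 11 measured Kupffer cell and macrophage markers 0 had an adjusted p under 0.05 (limma, 6.55% over all genes), and 0 had an unadjusted p under 0.05 (22.7% over all genes), with a summed value of 224 to 289 in L-RalyKO and 225 to 321 in control liver and Clec4f present in every mouse. The same held for 8 endothelial and 7 stellate cell markers, with sums of 203 to 256 and 298 to 368 in L-RalyKO liver and of 236 to 242 and 317 to 340 in controls. Of 6 cholangiocyte markers 3 were tested and 0 called (limma; 1 at an unadjusted p under 0.05, against 22.7% over all genes). Their sum, mostly Spp1, was 32.3 to 41.2 in L-RalyKO and 32.6 to 34.8 in control liver, with Cftr at 0.204 or less in every mouse. Within it Sox9 was 5.88, 4.70 and 4.29 in L-RalyKO mice and 4.05, 2.81 and 2.46 in controls (log2 fold change 0.55, adjusted p = 0.0774, limma). Krt19, under the filter, was also higher in every L-RalyKO mouse, at a mean of 0.754 against 0.396. The groups overlapped for Spp1 (log2 fold change −0.05, adjusted p = 0.831, limma), Epcam (0.15, 0.552), Krt7 and Cftr. Of the adipocyte markers only Cfd was tested, and it fell by 2.10 on the log2 scale (adjusted p = 0.0318, limma). The sum of the list was 0.132 to 1.10 in L-RalyKO and 2.81 to 13.1 in control liver, nearly all of it Cfd, while Adipoq, Lep, Retn and Plin1 were at 0.209 or less in every mouse and at 0 in several. Control mouse 1 had the highest sum (13.1), and controls 2 and 3 also lay above every L-RalyKO mouse. Without control replicate 1 the log2 fold change of Abca1 was −0.39 and that of Soat2 −0.34, and neither was called (adjusted p = 0.0939 and 0.0586, limma). The hepatocyte markers together had a summed value of 97166 to 98386 in L-RalyKO and 86758 to 95961 in control liver, with 1 of 8 called, Hnf4a (log2 fold change 0.55, adjusted p = 0.0155, limma, 6.55% over all genes). Of the 8, 4 had an unadjusted p under 0.05, all higher (11.8% over all genes), and all 8 fold changes were above 0. The part of these shifts in the members' values was not tested.

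Other genes of sterol handling were followed in 6 lists of 63 genes in all, of which 58 were tested and 9 called, 3 higher and 6 lower, where 6.55% of all genes tested were called, 3.36% higher and 3.19% lower. The lists were chosen with results known, and no test of a list was made. Among 16 other LXR target genes, 5 had an adjusted p under 0.05, 1 higher and 4 lower, with a median log2 fold change of −0.08. Pltp, which transfers phospholipids between lipoproteins, had values of 61.5, 79.1 and 54.7 in L-RalyKO mice and of 99.4, 96.5 and 83.6 in controls (log2 fold change −0.52, adjusted p = 0.0443, limma). Lpl, lipoprotein lipase, went the other way with 22.1, 31.1 and 22.7 against 7.66, 13.5 and 15.6 (log2 fold change 1.02, adjusted p = 0.0356, limma). Srebf1, the gene of the lipogenic SREBP1, and its target enzymes Fasn and Acaca fell, by 0.65, 0.50 and 0.30 on the log2 scale (adjusted p = 0.0173, 0.0445 and 0.0264, limma). The other 11 did not pass, among them Scd1, another SREBP1 target enzyme (log2 fold change 0.09, adjusted p = 0.858, limma), Mylip, Lpcat3, Cyp7a1 and Apoe.
Of 13 LXR partners and coregulators, 1 was called. Rxrg, a minor retinoid X receptor of liver, had values of 2.97, 3.13 and 2.29 in L-RalyKO mice and of 5.22, 4.42 and 4.81 in controls (log2 fold change −0.62, adjusted p = 0.0162, limma). Rxra, the main partner, differed by 0.12 on the log2 scale (95% interval −0.01 to 0.25, adjusted p = 0.247, limma). Of 6 tested genes of oxysterol metabolism 3 were called (6.55% over all genes), and the groups did not overlap in any of the 6, of which 4 were higher and 2 lower (28.1% over all genes did not overlap). Cyp27a1, which makes 27-hydroxycholesterol, had values of 573, 526 and 488 in L-RalyKO mice and of 417, 417 and 425 in controls (log2 fold change 0.33, adjusted p = 0.0190, limma). Cyp7b1, which hydroxylates oxysterols further, rose by 0.43 on the log2 scale (adjusted p = 0.0377, limma), and Cyp46a1, which makes 24-hydroxycholesterol, fell by 0.93 on the log2 scale (adjusted p = 0.0185, limma). Ch25h and Sult2b1 were under the filter.
Of 12 tested genes of lysosomal and intracellular sterol transport, 8 of HDL, biliary sterol and uptake and 4 of sterol ester hydrolysis, 0 were called (limma; 1, 3 and 0 at an unadjusted p under 0.05, against 22.7% over all genes). For the 6 of these genes named next, edgeR called 0 and DESeq2 called 1, Apoa1 (adjusted p = 0.0198). The smallest p values were those of Gramd1c (log2 fold change −0.17, adjusted p = 0.163, limma) and Osbpl9 (0.13, 0.232), of Scarb1 (0.19, 0.0907) and Apoa1 (0.28, 0.141), and of Nceh1 (−0.14, 0.249) and Lipa (−0.06, 0.553). Scarb1 is the HDL receptor, and Lipa the lysosomal lipase that frees the cholesterol NPC2 takes up.
None of these 9 calls held in all 6 fits that leave out 1 mouse, and Rxrg held in the most, 5. The number called in the 6 lists (limma) was 2, 6 and 4 without L-RalyKO replicate 1, 2 or 3 and 1, 3 and 10 without control replicate 1, 2 or 3. In edgeR, run on the recovered reads, the adjusted p of Pltp (0.0858), Lpl (0.131), Fasn (0.0675) and Cyp7b1 (0.0534) was above 0.05.

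**Figure D4:**
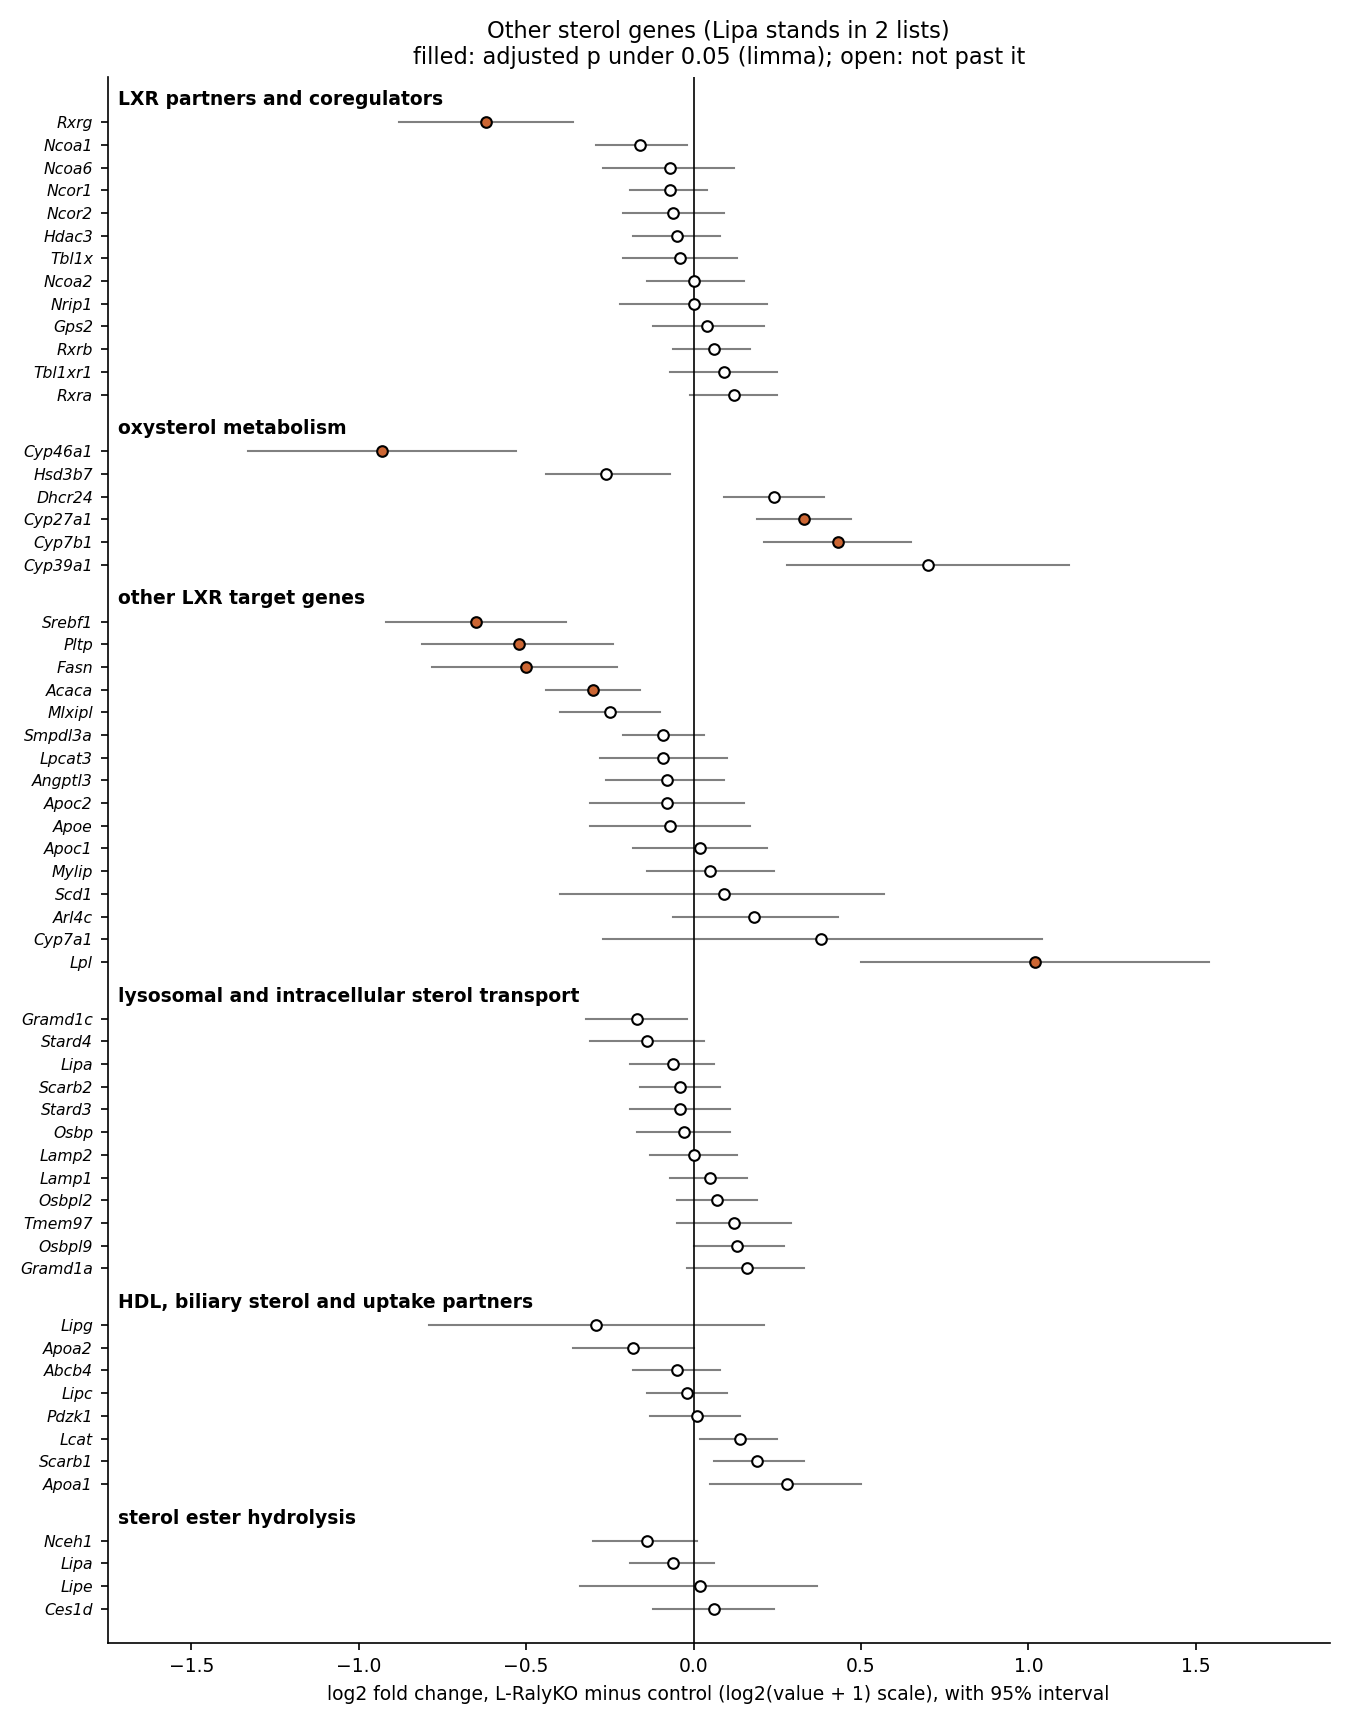
Log2 fold change (L-RalyKO minus control, log2(value + 1) scale) with 95% interval for each tested gene of the 6 lists, filled where the adjusted p from limma was under 0.05. Filled points lie below 0 for Rxrg, Cyp46a1, Srebf1, Pltp, Fasn and Acaca and above 0 for Cyp27a1, Cyp7b1 and Lpl, and the last 3 lists hold none.

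Soat2 was the member with the smallest p, and the tested genes whose log2 values followed it most closely over the 6 mice were Ppfibp2 (Pearson r = 0.995), Oraov1 (0.988) and Fam102b (0.988). Since both groups enter these correlations, they largely restate the difference between groups, and 47 genes had an r over 0.95. Ppfibp2 had values of 22.3, 20.2 and 20.1 in L-RalyKO mice and of 27.7, 31.6 and 27.3 in controls (log2 fold change −0.45, adjusted p = 0.0115, limma). Control mouse 2 was the highest for Ppfibp2 as it was for Soat2 (35.0). Oraov1 (log2 fold change −0.28, adjusted p = 0.0568, limma) and Fam102b (−0.16, 0.353) did not pass the test.

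**Figure D5:**
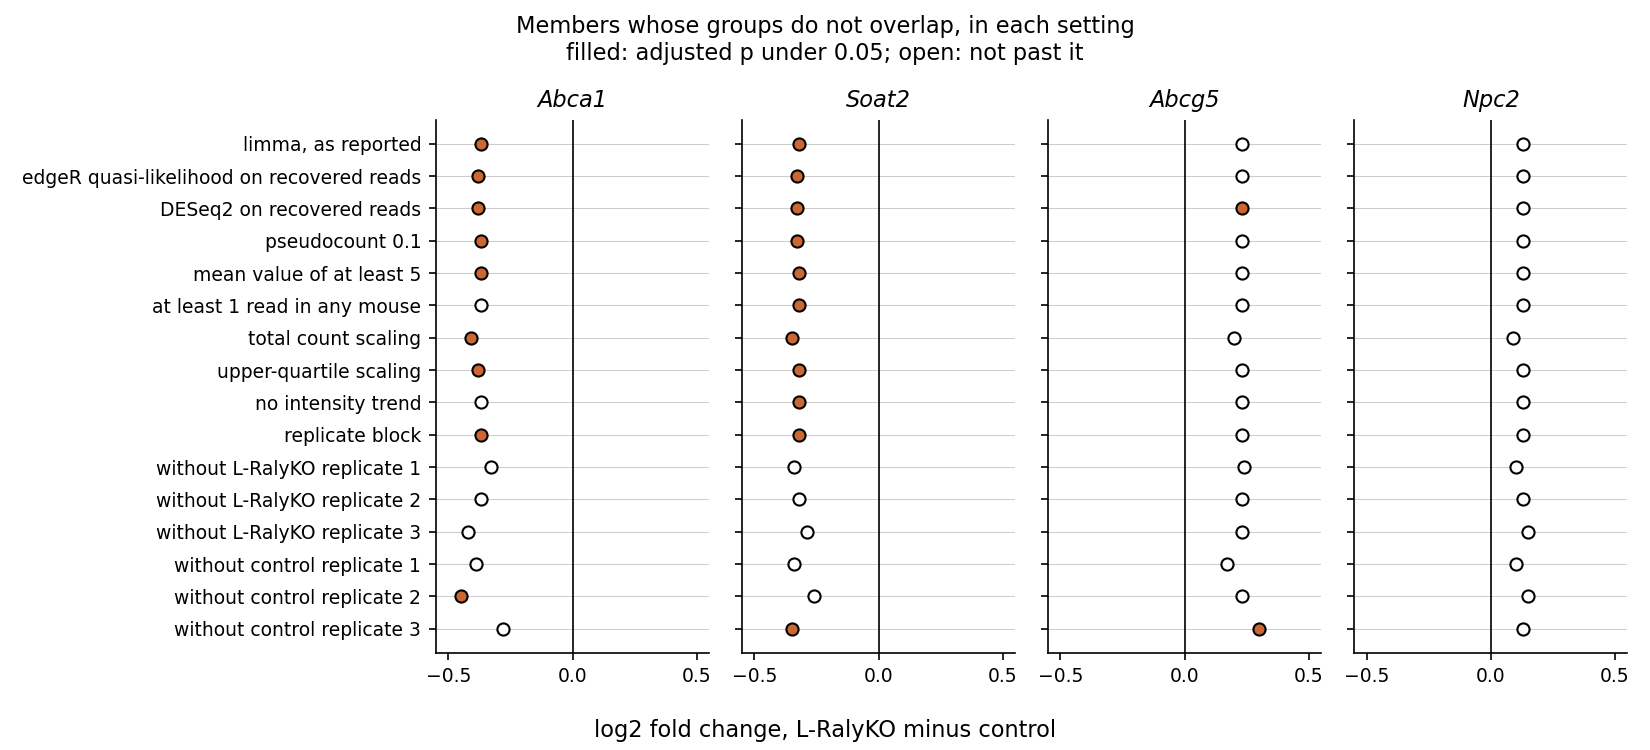
Log2 fold change of the 4 members whose groups did not overlap, under limma as reported and under each alternative setting, filled where the adjusted p was under 0.05. The points of Abca1 stay between −0.45 and −0.28 and those of Soat2 between −0.35 and −0.26, and most settings that leave out 1 mouse are open for both.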

How the data were processed

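Liver RNA-seq of 3 L-RalyKO and 3 control mice was analysed. ATAC-seq and ChIP-seq samples were not analysed here. The column names give virus and replicate number, which tied each column to its mouse. Per the study's methods, stranded libraries were aligned with TopHat to mm9 and quantified with Cufflinks (2.0.2). The values the authors deposited are another unit, a normalised signal of read counts per gene divided by the effective library size. All values (100% in each column, within 0.001 of a whole number) came out as whole numbers of reads, and the scaling factors equalled recomputed TMM factors, so no further normalisation was applied.

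Groups were compared with limma 3.58.1 (R 4.3.3, intensity trend) on log2(value + 1), which understates changes of low genes, for the 11580 genes whose mean reached 1. P-values were adjusted by Benjamini-Hochberg, with a threshold of 0.05. EdgeR 4.0.16 (quasi-likelihood test, 783 genes called) and DESeq2 1.42.0 were run on recovered reads as alternatives, and all were tested on simulated data. A value of 3 reads is 0.0789 to 0.105. Coordinates come from GENCODE vM1 on NCBIM37. The 10 genes and the lists were chosen with earlier results of these data known. All 10 members are named, and from each of the 6 other sterol lists every called gene or else the 2 with the smallest p. Genes named for Soat2's pattern are the 3 with the highest Pearson correlation. Other genes named, cell type markers included, were picked after their values were seen.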

Additional observations from a re-analysis of the deposited data

How the results depend on the processing

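Abca1, Soat2, Abcg5, Npc2, Abcg8, Nr1h3 and Abcg1 kept their direction in all 15 alternatives run, and Raly its call. Members called numbered 2, other sterol genes 9 and all genes 758. DESeq2 gave 3 (Abca1, Soat2 and Abcg5), 13 and 1088, and edgeR 2, 6 and 783. Members called numbered 1 (Soat2) when any gene with a read was kept and without an intensity trend, where other sterol genes called numbered 5 and 4 instead of 9. Leaving out 1 mouse gave from 0 to 2 members called, from 1 to 10 other sterol genes and from 332 to 813 of all genes. All genes called were 389 higher and 369 lower, 484 when any gene with a read was kept, and with total count scaling 324 higher and 469 lower. That scaling turned the log2 fold change of Nr1h2 to −0.03, of Soat1 to −0.01 and of Npc1 to −0.01. With 1 mouse left out Nr1h2 ran from −0.02 to 0.03, Soat1 from −0.05 to 0.12 and Npc1 from −0.02 to 0.09. Fits with 5 mice have fewer samples, and other causes were not tested. The replicate block kept both member calls (2), gave 11 other sterol genes and 704 of all genes, and lost the call of Cyp7b1 (adjusted p = 0.0678, limma). Same-numbered mice are different animals, and deviations of pairs 1, 2 and 3 correlated at 0.0664, −0.0238 and 0.0196, so the numbers do not pair them. Depth limits Soat1 most (counting error 10.5% at 91 reads).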
